A study of Homo sapiens with 4 samples.

Results

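HELZ and 8 related genes for superfamily (SF) 1 helicases were examined in HEK293T cells with and without a functional helz gene: HELZ2, MOV10, MOV10L1, UPF1, AQR, IGHMBP2, ZNFX1 and DNA2. These 9 genes were chosen by name among the 27011 genes of the deposited count table, and all 9 are in it. The question was whether mRNAs of the relatives rise when HELZ is missing. RNA-Seq was performed on 4 libraries, 2 biological replicates of WT cells and 2 of Helz-null cells. HEK293T cells are a permanent line that derives from human embryonic kidney. CRISPR-Cas9 editing of exon 8 of helz in these cells gave the Helz-null line, with a short deletion that shifts the reading frame. Both cell types received no treatment and were plated one day before RNA was extracted. Both Helz-null libraries come from this 1 edited line, so the spread between replicates does not include differences between edited lines. Counts per library ranged from 41745401 to 70464140.

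SF1 helicases use ATP to move along nucleic acid strands and to remodel the proteins bound to them. The UPF1-like family takes its name from UPF1, the central helicase of nonsense-mediated mRNA decay (NMD), the pathway that removes mRNAs with premature stop codons. HELZ combines its helicase core with a zinc finger, and it is known to contact poly(A)-binding protein and CCR4-NOT, the main deadenylase of mRNA decay. Its relatives act in different steps of RNA and DNA metabolism, and HELZ2, ZNFX1 and MOV10 are known to be induced by interferon.

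The edit lies far in front of the helicase core. In the canonical HELZ transcript of the GENCODE annotation on GRCh37, exon 8 of 33 covers chr17:65191535-65191586 on the minus strand. It is 52 bases long and holds bases 430 to 481 of the coding sequence, in codons 144 to 161 of 1942. Of the coding sequence, 91.7% lies downstream of this exon. The targeted exon is shown 5′ to 3′ in the direction of the gene, in capitals, with 20 intronic bases on each side in lower case.
HELZ exon 8: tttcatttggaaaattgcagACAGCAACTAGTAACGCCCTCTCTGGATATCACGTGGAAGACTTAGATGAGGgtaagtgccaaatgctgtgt

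What the 9 genes share is the ATP-binding loop of the helicase core, the Walker A motif, in which a glycine, any 4 residues, a second glycine, a lysine and a threonine or serine follow each other. Codons for this pattern were found in the canonical coding sequences of all 9 genes, against 4.56% of 20274 canonical coding sequences on GRCh37. In HELZ they begin at codon 668, downstream of exon 8. HELZ2 held the pattern at both of its helicase cores, at codons 544 and 2174 of 2649. The codons of 8 of the genes are shown 5′ to 3′ from the GENCODE transcripts, with those for the fixed residues in capitals and those for the 4 free residues in lower case.
HELZ: GGAccctatgggacaGGCAAAACG
HELZ2, first core: GGCccctttggcaccGGCAAGACC
HELZ2, second core: GGCccaccaggtacaGGGAAGACG
MOV10: GGGcctccaggcaccGGCAAGACT
MOV10L1: GGAcctcctggtactGGAAAGACA
UPF1: GGCccgccaggcacgGGGAAGACG
AQR: GGCccacctggtacaGGCAAAACA
ZNFX1: GGAcctcctggaacaGGCAAAACC
DNA2: GGTatgcctgggacaGGAAAAACA

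HELZ mRNA was lower in Helz-null cells and 1 of the relatives, HELZ2, was higher. Counts were scaled by the TMM method and tested with edgeR's quasi-likelihood test over the 10978 genes of the authors' deposited comparison. Genes were called at an FDR under 0.005 after Benjamini-Hochberg adjustment over all of these genes. Of the 8 relatives 7 could be tested, 1 was up-regulated, 0 were down-regulated and 6 were not called. At an unadjusted p under 0.05 the same test also gave 1 up and 0 down, and DESeq2 called 0 in either direction. Over all tested genes 25.1% were up and 25.8% down at that unadjusted p, and DESeq2 called 10% up and 11.7% down. Among all tested genes 29.4% were called, 13.9% up and 15.5% down. The 1 call among 7 relatives, 14.3%, is too small a number to set apart from these shares. That relative, HELZ2, was also among the tested genes only through Helz-null replicate 1, the library in which it was highest. The median log2FC of the 7 tested relatives was 0.0048, and that of all tested genes was -0.000905. In 6 of the 7 the absolute log2FC was below the median over all tested genes of 0.106. RNA was taken from whole cultures, so a lower mRNA level per cell and fewer cells with the mRNA cannot be told apart.

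HELZ had 99.8 and 103.9 CPM (counts relative to the TMM-scaled library total) in WT cells, against 36.98 and 37.88 CPM in Helz-null cells. Both Helz-null libraries lay far below both WT libraries. Its log2FC was -1.44 (standard error 0.042, 95% interval -1.53 to -1.36, adjusted p = 2.13e-27 from edgeR), a fall by 63.3% in CPM. It ranked 15 of 10978 genes from the lowest log2FC. The annotated gene spans chr17:65066560-65242105 on the minus strand. HELZ-AS1 and other non-coding genes on the opposite strand overlap it and are not among the counted genes. Whether the counting used strand is not given in the sources used here.

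**Figure D1:**
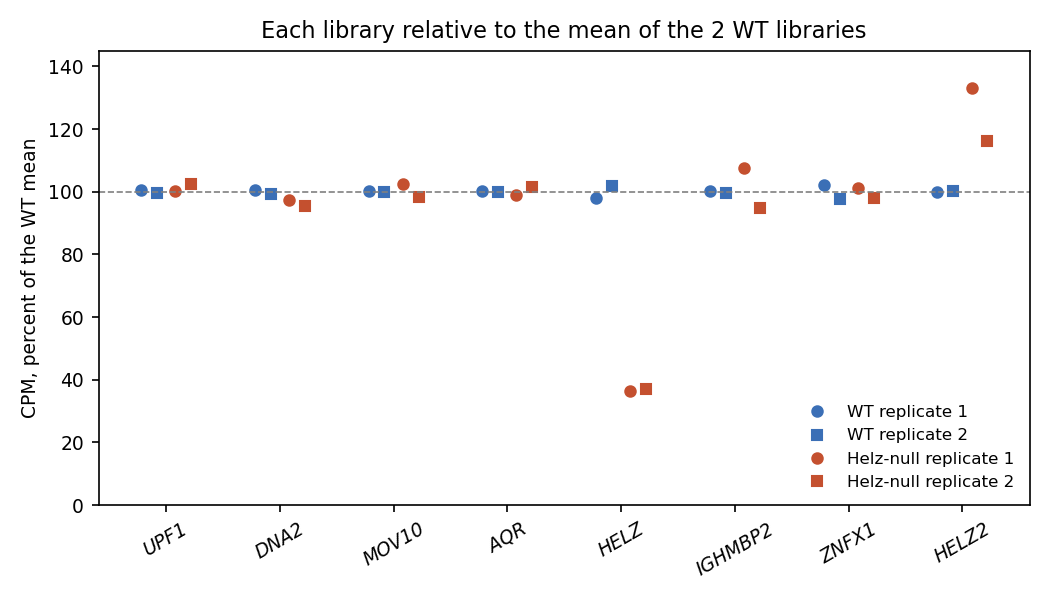
CPM of each helicase gene in each library as a percentage of the mean of the 2 WT libraries (WT in blue, Helz-null in red, circles for replicate 1 and squares for replicate 2, dashed line at the WT mean), with genes ordered by WT level and MOV10L1 left out because its WT counts were 0. HELZ lay well below the line in both Helz-null libraries, HELZ2 lay above it in both, and the other 6 genes stayed close to it.

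HELZ2 encodes a large protein with a pair of helicase cores, described as a transcriptional coactivator of PPAR receptors and as an interferon-induced gene. Its CPM were 15.5 and 15.6 in WT cells, against 20.7 and 18.0 in Helz-null cells. The WT libraries were nearly equal, and both Helz-null libraries lay above them but apart from each other. HELZ2 was the only tested relative with non-overlapping groups that was higher in Helz-null cells, 1 of 7, while 34.9% of all tested genes had this pattern. HELZ2 was up-regulated 1.25-fold, with a log2FC of 0.31 (standard error 0.077, 95% interval 0.15 to 0.46, adjusted p = 0.00112 from edgeR). The call rests on Helz-null replicate 1: without it the log2FC was 0.22 and the gene was not called (adjusted p = 0.0641), and with DESeq2 it was 0.32 and not called either (adjusted p = 0.00831). HELZ2 was also the least abundant of the tested members, and its FPKM, the CPM per kilobase of gene width, exceeded 2, the limit used by the authors to select genes, in Helz-null replicate 1 alone. It could therefore pass that selection only through the group in which it was higher. With filterByExpr, a filter on counts that HELZ2 passes in both groups, over 16087 genes, the log2FC was 0.31 (adjusted p = 0.00165 from edgeR). HELZ2 spans chr20:62189439-62205592 on the minus strand. Of its neighbours, GMEB2 had a log2FC of -0.032 (adjusted p = 0.699 from edgeR), and the 20 nearest tested genes had a median of -0.038.

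UPF1 was the most abundant member in every library. Its CPM were 177.2 and 175.3 in WT cells and 176.8 and 180.5 in Helz-null cells. The groups overlapped, and the log2FC of 0.020 had a 95% interval from -0.043 to 0.083 (adjusted p = 0.634 from edgeR). As a change in level this interval runs from -2.92% to 5.92%. The gene spans chr19:18942768-18979039 on the plus strand. GDF1, whose annotated end on the opposite strand lies 314 bases from that of UPF1, was up-regulated (log2FC 0.41, adjusted p = 1.06e-07 from edgeR).

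MOV10, a helicase of the miRNA pathway that also restrains retrotransposons, had CPM of 49.3 and 49.0 in WT cells. In Helz-null cells its CPM were 50.3 and 48.3, on either side of the WT values. Its log2FC was 0.0015 (95% interval -0.093 to 0.096, adjusted p = 0.983 from edgeR). The gene lies on chr1:113215763-113243378, plus strand. MOV10L1, its germline paralog that acts in the piRNA pathway and lies on chr22:50528435-50600119, plus strand, had 0 counts in both WT libraries and in Helz-null replicate 1 and 2 counts in Helz-null replicate 2. These are under the floor of 3 counts, which corresponds to between 0.0430 and 0.0732 CPM, so MOV10L1 was not tested and no fold change is given. Floors cover counting error only.

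AQR is a helicase of the spliceosome that contacts introns. Its CPM were 49.9 and 49.7 in WT cells and 49.2 and 50.6 in Helz-null cells, with overlapping groups and a log2FC of 0.0048 (95% interval -0.089 to 0.098, adjusted p = 0.945 from edgeR). It lies on chr15:35143983-35261943, minus strand. AQR and MOV10 had almost the same CPM in WT cells, but per length of their genes they differed, as given below. IGHMBP2, a ribosome-associated helicase whose loss causes a motor neuron disease, lies on chr11:68671331-68708070, plus strand. Its CPM were 28.6 and 28.4 in WT cells and 30.6 and 27.0 in Helz-null cells. The Helz-null libraries enclosed the WT values, and IGHMBP2 had the largest spread between Helz-null replicates of the uncalled relatives relative to its level. Its log2FC was 0.0060 (95% interval -0.12 to 0.13, adjusted p = 0.948 from edgeR).

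ZNFX1, an interferon-induced sensor of double-stranded RNA, had CPM of 23.9 and 22.9 in WT cells and 23.6 and 22.9 in Helz-null cells. Its groups overlapped, with a log2FC of -0.011 (95% interval -0.14 to 0.12, adjusted p = 0.912 from edgeR). ZNFX1 spans chr20:47854483-47894963 on the minus strand and overlaps 2 counted genes on the plus strand, DDX27 over 6132 bases and ZFAS1 over 249 bases. ZFAS1, a non-coding host of small nucleolar RNAs, was down-regulated (log2FC -0.53, adjusted p = 6.53e-11 from edgeR), with CPM of 44.2 and 45.2 in WT and 30.01 and 31.7 in Helz-null cells. DDX27 had a log2FC of 0.096 and was not called (adjusted p = 0.0266 from edgeR). Without knowledge of strand, reads in the overlaps cannot be assigned with certainty.

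DNA2, a nuclease and helicase of DNA replication and double-strand break repair, was the only relative besides HELZ2 whose groups did not overlap. Its CPM were 59.1 and 58.4 in WT cells and 57.2 and 56.1 in Helz-null cells, so both Helz-null libraries were slightly lower. The difference did not pass the test (log2FC -0.054, 95% interval -0.14 to 0.034, adjusted p = 0.327 from edgeR). Non-overlapping groups were found for 70.6% of all tested genes and for 2 of the 7 tested relatives. DNA2 spans chr10:70173821-70231878 on the minus strand.

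**Figure D2:**
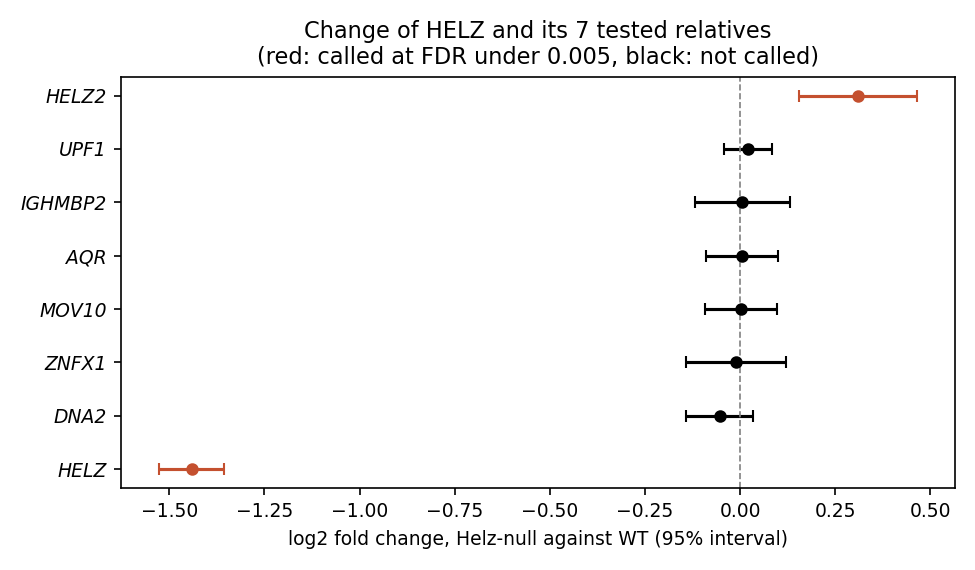
Log2FC between Helz-null and WT cells (x axis) for HELZ and its 7 tested relatives, with 95% intervals from edgeR's quasi-likelihood fit as bars (2 libraries per group, red for called genes, black for genes not called). The interval of HELZ2, from 0.15 to 0.46, lies to the right of 0, that of HELZ to the left, and the other 6 include 0.

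For the 6 relatives that were not called, the 95% intervals give a range for the change under the main scaling. They are not the smallest change that would have been called, and they do not cover differences between edited lines. Their log2FC ranged from -0.054 for DNA2 to 0.020 for UPF1, with adjusted p from 0.327 to 0.983 in edgeR's test. The upper ends of the 95% intervals ranged from a rise of 2.39% for DNA2 to one of 9.51% for IGHMBP2. The lower ends ranged from -9.40% for DNA2 to -2.92% for UPF1.

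Levels of different genes were compared as FPKM, which divides by gene width. In WT cells the mean FPKM was 32.8 for UPF1, 13.6 for DNA2, 10.9 for MOV10, 9.80 for AQR, 7.37 for HELZ, 7.21 for IGHMBP2, 3.17 for ZNFX1 and 1.53 for HELZ2. UPF1 was thus well above all other members. HELZ and IGHMBP2 were the only neighbours in this order whose WT libraries overlapped: HELZ had 7.22 and 7.52 FPKM and IGHMBP2 had 7.23 and 7.19. In Helz-null cells HELZ fell to 2.71 ± 0.046 FPKM (SD, n = 2), between ZNFX1 at 3.16 ± 0.069 and HELZ2 at 1.91 ± 0.186. The order of the other genes was the same as in WT cells.

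**Figure D3:**
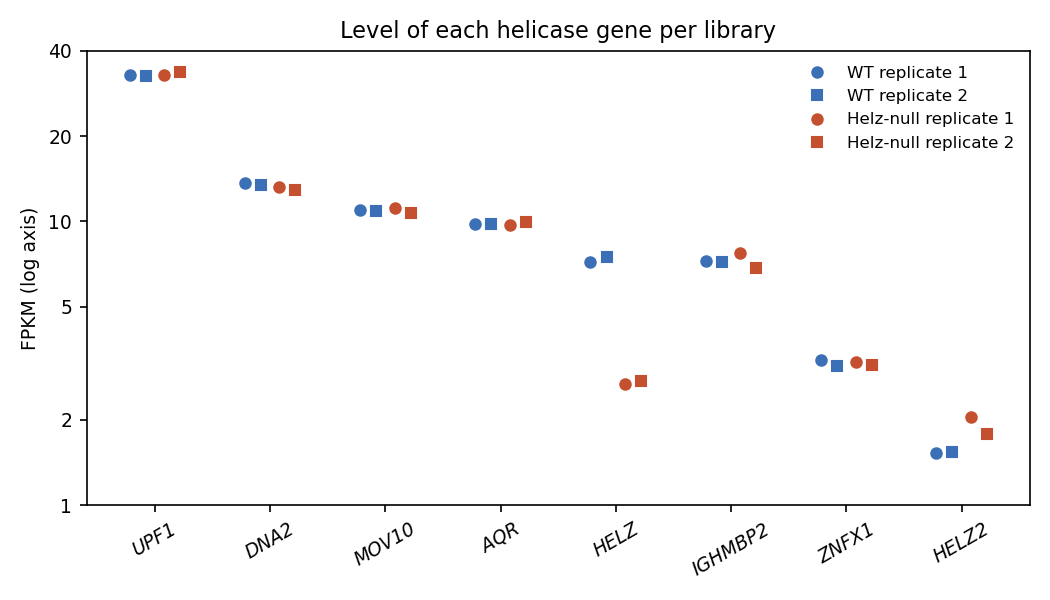
FPKM (log axis) of each tested helicase gene in the 4 libraries (WT in blue, Helz-null in red), ordered by WT level. UPF1 lies highest at about 32.8 FPKM in WT cells, and HELZ drops from the fifth place to between ZNFX1 and HELZ2.

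The loss of HELZ mRNA was set beside the sum of its relatives. HELZ fell by 4.66 FPKM, from 7.37 ± 0.210 in WT to 2.71 ± 0.046 in Helz-null cells (SD, n = 2). Loss of HELZ here means this fall in mRNA and not the loss of protein, which RNA-Seq does not measure. The 8 relatives together had 79.4 and 78.6 FPKM in WT cells, against 79.9 and 78.9 in Helz-null cells. These groups overlapped, and the means differed by 0.469 FPKM, or 0.594%, which is 10.1% of the loss of HELZ and less than the SD of either group (0.566 in WT and 0.728 in Helz-null cells). An exact permutation test of the 4 libraries (two-sided) gave p = 0.667, and the smallest p that 2 against 2 libraries allow is 0.333. With single libraries left out the difference was -0.0455 FPKM without Helz-null replicate 1, 0.981 without Helz-null replicate 2, 0.849 without WT replicate 1 and 0.167 without WT replicate 2. With scaling by library size only it was 2.29 FPKM. The rise of HELZ2 came to 0.379 FPKM, 8.14% of the loss of HELZ, the difference in UPF1 to 0.450 FPKM and that in DNA2 to -0.484 FPKM. HELZ made up 8.53% of the summed FPKM of all 9 genes in WT cells and 3.30% in Helz-null cells, while UPF1 made up 38.0% and 40.4%.

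ZGRF1, a further UPF1-like helicase, had CPM of 23.4 and 26.1 in WT and 24.9 and 23.9 in Helz-null cells, with overlapping groups, and was not called (log2FC -0.021, adjusted p = 0.828 from edgeR). Of the SF1 helicases outside the family, PIF1 (log2FC -0.18, adjusted p = 0.197) and FBXO18 (log2FC 0.015, adjusted p = 0.746) were not called in the same test. HELB, a DNA helicase, was not among the genes of the deposited comparison, with CPM of 6.23 and 6.49 in WT and 4.26 and 4.69 in Helz-null cells. Both Helz-null libraries were lower, and with filterByExpr over 16087 genes HELB was down-regulated (log2FC -0.50, adjusted p = 0.00191 from edgeR).

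Gene groups around the individual helicases were then counted from lists fixed by symbol, and their counts stand beside the 13.9% up and 15.5% down among all tested genes. Counts at an unadjusted p under 0.05 stand beside 25.1% up and 25.8% down. Those of DESeq2 stand beside 10% and 11.7%, and those with scaling by library size only beside 19.2% and 12%. The first group holds mRNA decay factors and poly(A)-binding proteins, namely the CCR4-NOT subunits CNOT1, CNOT2 and CNOT3, the decapping activators EDC4 and PATL1, PAN3, DDX6, PABPC1 and PABPC4. The list was drawn up around HELZ, but binding to HELZ is not established for every member. In edgeR's test 0 of these 9 genes were called up and 1 was called down, and DESeq2 gave the same numbers. The median log2FC was -0.013. The down-regulated gene was PABPC4, a cytoplasmic poly(A)-binding protein, with CPM of 257.7 and 254.8 in WT and 235.9 and 238.3 in Helz-null cells (log2FC -0.11, adjusted p = 0.00186 from edgeR). It was not called when either Helz-null library was left out. When libraries were scaled by total count only, 2 genes of this group were called up and 0 down. At an unadjusted p under 0.05 the main test gave 2 up and 1 down.

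Around UPF1, 20 genes for NMD factors were tested, of which 3 were up-regulated, 2 were down-regulated and 15 were not called (median log2FC 0.054). At an unadjusted p under 0.05 the same test gave 10 up and 2 down, where 25.1% and 25.8% of all tested genes passed, and DESeq2 called 3 up and 2 down. SMG5, which recruits decay enzymes to UPF1, rose from 283.4 and 267.4 CPM to 337.3 and 329.6 CPM (log2FC 0.27, adjusted p = 8.56e-10 from edgeR). NBAS rose with a log2FC of 0.22. SMG1, the kinase that phosphorylates UPF1, fell from 183.5 and 178.1 CPM to 159.0 and 148.9 CPM (log2FC -0.24, adjusted p = 2.19e-07 from edgeR), and UPF3B fell with a log2FC of -0.15. UPF1 itself and its direct partner UPF2 (log2FC 0.014, adjusted p = 0.816) were not called. The number of NMD factors called up depended on scaling and was 9 with library size only. It was 1 without Helz-null replicate 1 and 5 without WT replicate 1, where 1059 and 1348 of all 10978 genes were called up. The number called down was 1 without Helz-null replicate 2, where 1180 of all genes were called down.

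Of 12 RNAs known as NMD targets 11 were tested, and they moved in both directions, 2 up and 4 down (median log2FC 0.041). ATF3, a stress-induced transcription factor, rose from 31.1 and 29.7 CPM to 40.5 and 42.8 CPM (log2FC 0.45, adjusted p = 5.72e-09 from edgeR), and the cochaperone gene DNAJB2 rose with a log2FC of 0.32. Among the RNAs that fell were SESN2 (log2FC -0.23), TBL2 (log2FC -0.22) and GAS5 (log2FC -0.22), a non-coding host of small nucleolar RNAs. ATF4, the transcription factor of the integrated stress response, also fell (log2FC -0.11).

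Around MOV10, 12 genes of miRNA silencing were tested, 0 up and 3 down (median log2FC -0.033). At an unadjusted p under 0.05 edgeR gave 1 up and 5 down, where 25.1% and 25.8% of all tested genes passed, and DESeq2 called 0 up and 2 down. The 3 were AGO1 (log2FC -0.22, adjusted p = 9.94e-06), AGO2 (log2FC -0.20, adjusted p = 0.00217), both Argonaute proteins that carry miRNAs, and DICER1, which cuts their precursors (log2FC -0.18, adjusted p = 3.92e-05, all from edgeR). AGO2 had CPM of 40.2 and 39.8 in WT and 36.0 and 33.9 in Helz-null cells. The number called down was 1 without Helz-null replicate 2, and 2 without WT replicate 1 or with library size only, where 1180, 1596 and 1318 of all 10978 genes were called down.

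HELZ2, ZNFX1 and MOV10 belong to the interferon-stimulated genes, and other genes of this class were counted next. Of 41 listed genes 13 were in the comparison, with 0 called up and 4 called down (median log2FC -0.10). At an unadjusted p under 0.05 edgeR gave 0 up and 5 down, with the same shares over all tested genes, and DESeq2 called 0 up and 4 down. With filterByExpr, 30 of the 41 were tested, with 0 up and 7 down, while 9.83% of the 16087 genes of that test were called up and 11.5% down. BST2, or tetherin, which holds budding viruses at the cell surface, fell from 10.3 and 10.5 CPM to 1.84 and 2.18 CPM, the largest change of any list (log2FC -2.35, adjusted p = 7.94e-18 from edgeR). HERC5 fell with a log2FC of -0.42, EIF2AK2, the kinase PKR, with one of -0.38 and IFIT5 with one of -0.34. Of the list, 4 genes, IFI44, MX2, OAS1 and OAS2, had 0 counts in every library. The summed CPM of all 41 genes was 728.7 and 715.0 in WT and 684.2 and 670.9 in Helz-null cells.

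For AQR, the 4 other genes of the intron-binding complex were tested, with 1 up and 0 down. XAB2 rose from 37.3 and 34.7 CPM to 42.1 and 44.4 CPM (log2FC 0.27, adjusted p = 6.66e-05 from edgeR), and was not called without Helz-null replicate 2. ISY1, ZNF830 and PPIE had log2FC values from -0.041 to 0.023. For DNA2, 11 genes of DNA end resection and flap processing gave 1 up and 3 down (median log2FC 0.0053), against 3 up and 4 down at an unadjusted p under 0.05, which 25.1% and 25.8% of all tested genes passed in these directions. The number called up was 2 without WT replicate 1 and with library size only, where 1348 and 2109 of all genes were called up. EXO1, a nuclease that resects breaks beside DNA2, fell from 139.3 and 139.8 CPM to 97.5 and 98.2 CPM (log2FC -0.51, adjusted p = 7.55e-16 from edgeR). The helicase BLM fell with a log2FC of -0.29 and RBBP8, also called CtIP, with one of -0.20, whereas RAD50 rose with one of 0.22. For MOV10L1, 10 of 17 piRNA pathway genes had 3 counts or fewer in every library, and 3 were tested, 0 up and 1 down, PLD6, which encodes a protein of the mitochondrial surface (log2FC -0.36, adjusted p = 1.83e-06 from edgeR). With library size only and with thinned libraries 1 was called up, where 2109 and 1380 of all 10978 genes were called up. For this list DESeq2 also called 0 up and 1 down, and at an unadjusted p under 0.05 edgeR gave 2 up and 1 down.

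**Figure D4:**
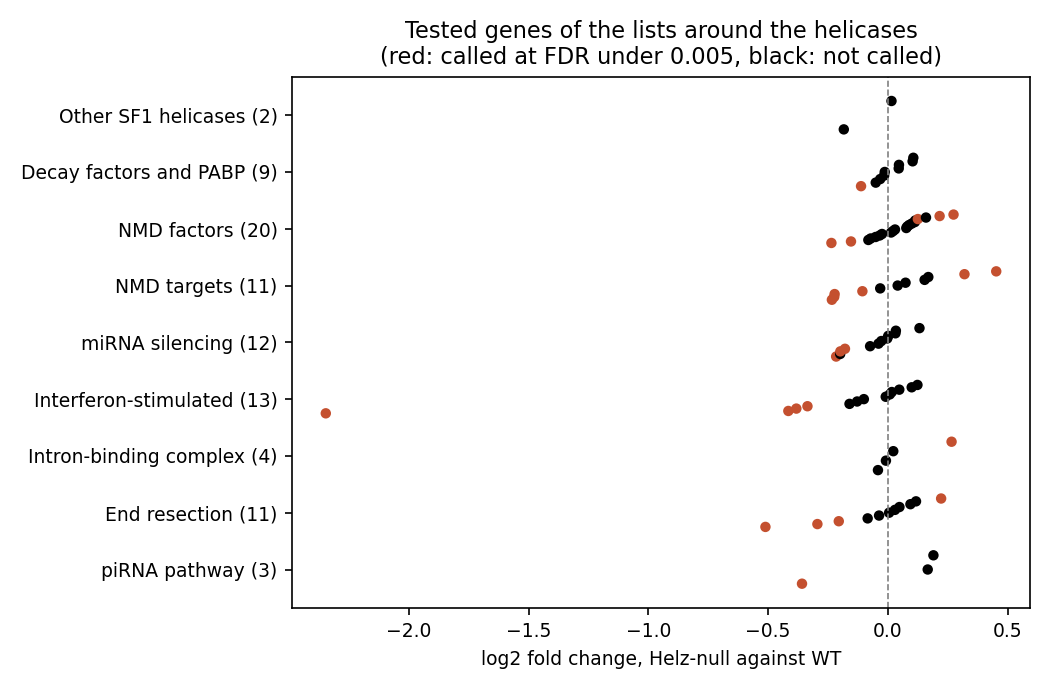
Log2FC between Helz-null and WT cells (x axis) of each tested gene in 9 lists around the helicases, with the number tested in brackets (red for genes called at an FDR under 0.005, black for genes not called). The interferon-stimulated genes hold 4 called genes, all below 0, with BST2 at -2.35 farthest to the left.

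Genes near the members on their chromosomes were also examined. The 20 tested genes nearest to each of the 8 tested members had median log2FC values between -0.038 around HELZ2 and 0.073 around ZNFX1. Around HELZ the median was 0.013, with 9 of the 20 below 0, and PSMD12, its nearest tested neighbour, had a log2FC of -0.00070. With the neighbours' median subtracted, HELZ2 had a log2FC of 0.35 and was called (adjusted p = 0.000354 from edgeR), and none of the other 6 tested relatives was.

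The 5 tested genes whose values over the 4 libraries were most like those of HELZ were CASP8, SATB1, RNF43, PCDH10 and CADPS2, by the Euclidean distance of log2 CPM deviations from the mean of each gene. The distances ranged from 0.077 for CASP8 to 0.24 for CADPS2. CASP8, an initiator caspase of apoptosis, had CPM of 14.9 and 14.9 in WT and 5.11 and 5.44 in Helz-null cells. SATB1, a chromatin organizer, had 18.5 and 17.6 in WT and 6.75 and 6.54 in Helz-null cells. The likeness rests on 4 libraries in 2 groups. All 5 genes were down-regulated in Helz-null cells, with log2FC values from -1.49 to -1.23. This follows from their choice by likeness to HELZ and is no separate result. CASP8, SATB1, RNF43 and CADPS2 had an FPKM above 2 in the WT libraries only. They could therefore pass the authors' selection only through the group in which they were higher.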

How the data were processed

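Total RNA of 2 WT and 2 Helz-null HEK293T cultures was sequenced after TruSeq RNA library preparation. The authors filtered out ribosomal reads (Bowtie2) and aligned the remaining read pairs with TopHat2 against hg19. Reads were counted per gene with QuasR, and the deposited table holds these counts without normalization. Versions, gene annotation, use of strand and the counting of mates are not given in the sources used here. A second deposited table holds the authors' edgeR comparison, with log2 CPM, log2 fold changes, p-values and FDR; only its list of 10978 genes was used, as the selection of genes to test.

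All 4 libraries entered 1 fit with genotype as the only term (R 4.3.3, edgeR 4.0.16, limma 3.58.1; TMM, glmQLFit, glmQLFTest; FDR under 0.005). The log2FC used a prior count of 0.125, with standard errors from the F statistic and 95% intervals from the t distribution. CPM and FPKM used the TMM-scaled totals of the tested genes, which make up 97.8% of each library's counts. Alternatives were DESeq2 1.42.0, other scalings and filters, a replicate block, thinned libraries, a minimum fold, neighbour medians and single libraries left out. P-values measure the spread between these libraries only. Chi-square per degree of freedom between replicates was 4.16 in WT and 3.01 in Helz-null cells. Counting both mates of a pair would raise these values by itself, so the part beyond counting noise is uncertain. On simulated counts for this comparison over 10978 genes, 80 of 100 genes changed by 0.25 on the log2 scale and 100 of 100 changed by 1 were called, with 0 false calls. The simulation gave every gene the same dispersion and changed a small share of genes, all above a minimum level. Spread differs between genes in the real libraries, and many more genes were called there. These numbers therefore need not hold for the real libraries.

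The members and lists were chosen with earlier results of these data known. Named genes were the members, ZGRF1, up to 4 called genes with the largest absolute log2FC per list, the 5 genes most like HELZ (log2 CPM with a prior count of 2), and annotated neighbours. Other genes named from the lists (GAS5, ATF4, UPF2, ISY1, ZNF830, PPIE, PIF1, FBXO18, HELB and those with 0 counts) were chosen after their values were seen. Some items are not reported here. Positions came from GENCODE v44 lifted to GRCh37, matched by symbol, exon 8 from the GRCh37 genome and helicase codons from GENCODE transcripts. Figures used matplotlib 3.10.9.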

Additional observations from a re-analysis of the deposited data

How the results depend on the processing

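HELZ stayed down-regulated in all 16 alternatives, with log2FC values from -1.47 to -1.41, and the leave-one-out range was also -1.47 to -1.41. HELZ2 kept its direction in all 15 alternatives in which it was tested. Its log2FC with single libraries left out ranged from 0.22 to 0.42, and the number of relatives called up from 0 to 1. It was 0 with DESeq2 (HELZ2 log2FC 0.32), 0 when tested against a minimum fold of 1.2 (log2FC 0.31, adjusted p = 0.907) and 0 with an FPKM above 2 in every library, a filter that HELZ2 did not pass. No relative was called down in any alternative. Over all genes, testing against that minimum fold called 217 up and 318 down, against 1524 and 1701 in the main test. Of the genes in the 10 lists it called 1 up and 2 down, against 7 and 18, and scaling by library size called 17 up. Without single libraries, 5 to 12 of the 87 tested list genes were called up, beside 1027 to 1544 of all 10978 genes. Scaling by library size also moved the share of up-regulated genes among all calls from 47.3% to 61.5%, shifted the median log2FC of all genes to 0.032 and moved the summed difference of the relatives to 2.29 FPKM. The cause of these shifts was not tested.

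Of the 6 uncalled relatives, DNA2 kept its sign in all 16 alternatives (-0.083 to -0.021), and the other 5 changed sign in at least 1 of them, all without being called. MOV10 was at -0.0013 with filterByExpr, -0.0015 with all genes that had at least 1 count, -0.0045 with neighbour medians subtracted and -0.0016 with a mean CPM of at least 1, a filter chosen after seeing the data; its leave-one-out range was -0.025 to 0.033. With neighbour medians subtracted UPF1 was at -0.019 and IGHMBP2 at -0.033. Thinned libraries gave -0.00080 for AQR and -0.0063 for IGHMBP2, and library size only gave 0.023 for ZNFX1. Leave-one-out ranges were -0.017 to 0.023 for AQR, -0.079 to 0.10 for IGHMBP2 and -0.038 to 0.024 for ZNFX1. The replicate block, with 1677 genes called up and 1841 down, changed no call among the members (HELZ2 log2FC 0.32, adjusted p = 0.00019); same-numbered libraries shared only a number, and their deviations correlated at 0.034. With 2 libraries per group, no single library could be tested as deviating.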
